A study of Mus musculus with 13 samples.

Results

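TCDD was compared with vehicle in donor CD4+ T cells that had divided in response to host antigens in mice, on 8 of the 13 arrays of the series. The 4 TCDD and 4 vehicle arrays were chosen by the treatment in their source descriptions, which name each as a biological replicate, and no measured value entered that choice. Donor splenocytes from C57Bl/6 mice carrying CFSE, a dye diluted at each division, were given intravenously to B6D2F1 hosts to start graft-versus-host disease, and both strains were 10 to 12 weeks old. TCDD hosts received 15 µg/kg intraperitoneally on day 0 alone, whereas vehicle hosts were injected on days 0, 1 and 2, so the number of injections differed as well as the agent. All hosts were killed on day 3, at 72 h, and CD4+ cells with at least 2 divisions were sorted from spleen and lymph node. Cells that had not divided are not in these samples, and the agent was given to the whole host.

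TCDD, also called dioxin, is the prototype ligand of the aryl hydrocarbon receptor (AhR). Without ligand AhR waits in the cytoplasm with chaperones; with ligand it moves to the nucleus, pairs with ARNT and binds DNA at sites with the core GCGTG. It is best known for switching on drug-metabolising enzymes of the CYP1 family, and in CD4+ T cells its ligands have been used to steer cells towards regulatory or inflammatory states.

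All values are log2 expression per probe set after RMA, with 1 probe set for each of 22180 genes. A gene was tested if at least 4 arrays lay above 4.31, the median over the whole table and here called the floor, which left 12710 genes. A gene was called when its adjusted p was under 0.05. A change is TCDD minus vehicle on the log2 scale, SE is its standard error, and 1 unit is 2-fold. Among 4 arrays a group, the median SD over genes was 0.17 with vehicle and 0.16 with TCDD, and the median SE of a change was 0.14. The 8 arrays correlated with others of their own group at 0.967 to 0.976. Vehicle replicate 3 had the lowest estimated weight of these 8, 0.62, and Cl-BBQ replicate 1, which enters only through the shared estimate of the spread, had 0.39.

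The sorted cells carried the markers of CD4+ T cells in both groups. Cd4 itself was at 10.58, 10.63, 10.27 and 10.59 with vehicle and 10.56, 10.68, 10.58 and 10.49 with TCDD, overlapping groups. The mean over 7 such markers was 10.90 to 11.17 on the vehicle arrays and 11.20 to 11.28 on the TCDD arrays. B cell markers averaged 4.08 to 4.23 with vehicle and 3.84 to 4.03 with TCDD over 10 genes, of which Ms4a1 was below the floor in both groups, at 2.58 and 2.62. Monocyte and macrophage markers averaged 4.56 to 4.64 and 4.25 to 4.51 over 14 genes, with Lyz2 at 3.13 and 2.35 and Adgre1 at 3.96 and 3.78. Neutrophil markers lay at 3.33 to 3.66 over all 8 arrays and natural killer cell markers at 4.08 to 4.45. The mean of the CD4+ T cell markers was thus slightly higher, and those of the B cell and monocyte markers slightly lower, with TCDD without overlap between the groups. The lower means were not shared by all members. Of 5 tested B cell markers only Cd22 was called, lower by 2.14, and their median change was 0.0043. Of 8 tested monocyte and macrophage markers Cybb and Ly6c2 were called lower and Cd68 higher, with a median of -0.06. Whether these shifts had a part in the results below was not tested. Fewer cells of a type cannot be told apart here from less RNA per cell or from a change in single genes.

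TCDD raised 408 genes, 3.21% of those tested, and lowered 445, or 3.5%. The rises were led by genes of the cytotoxic programme, cytokine receptors, mucosal homing and the AhR battery, and the falls by Stfa3 and Itgb1, with cell cycle genes making up 33.0% of all lower calls. Of the rises 105 were at least 2-fold and 20 at least 4-fold, against 114 and 8 of the falls. The median size of a called change was 0.70 for rises and 0.74 for falls. Calls were less frequent at low levels, with 2.25% called among genes whose mean was below 5, 7.16% between 5 and 7, 9.9% between 7 and 9 and 8.67% above 9. All TCDD arrays lay above all vehicle arrays for 6.31% of tested genes and below them for 7.28%. With each array left out in turn, 542 of the 853 calls (267 higher, 275 lower) held throughout.

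**Figure D1:**
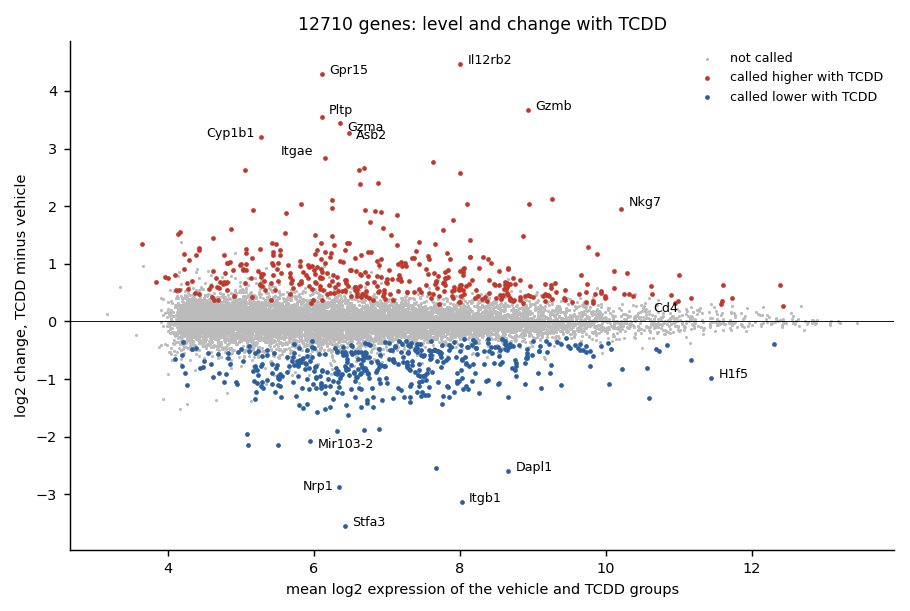
Change with TCDD (log2, vertical axis) against the mean log2 level of the vehicle and TCDD groups (horizontal axis) for 12710 tested genes, 1 point per gene. Red points are the 408 genes called higher, blue points the 445 called lower and grey points the rest, and Il12rb2 and Gpr15 lie at the top and Stfa3 and Itgb1 at the bottom.

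The AhR battery responded as a small set of rises with no fall. Of 9 measured AhR target genes, 6 were tested, 5 rose, with any 1 array left out as well, and the list had a median change of 1.30, against -0.0009 over all tested genes. Cyp1b1, a cytochrome P450 that oxidises polycyclic compounds and steroids, stood at 3.86, 3.78, 3.92 and 3.14 on the vehicle arrays and at 7.03, 6.80, 6.73 and 6.92 on the TCDD arrays. The vehicle values of Cyp1b1 were all below the floor and the TCDD values all well above it, a change of 3.20 ± 0.20 SE (adjusted p = 1.09e-07). Cyp1a1, the classic AhR-induced P450, was at 3.23, 4.05, 4.35 and 3.96 with vehicle and 5.76, 5.76, 4.58 and 5.32 with TCDD. Its lowest TCDD array was only a little above its highest vehicle array, and the change was 1.45 ± 0.27 SE (adjusted p = 0.00334). Tiparp, an ADP-ribosyltransferase that limits AhR signalling, was at 6.55, 6.56, 6.63 and 6.19 with vehicle and 8.04, 7.83, 7.56 and 7.79 with TCDD, without overlap. Ahrr, a repressor that competes with AhR for its partner, was at 3.29, 4.06, 4.20 and 3.65 with vehicle and 4.94, 5.04, 4.92 and 5.36 with TCDD. The change was 1.33 ± 0.14 SE for Tiparp and 1.27 ± 0.19 SE for Ahrr, and that of the quinone reductase gene Nqo1 was 1.01 ± 0.17 SE. Cyp2s1 was at 0.25 ± 0.21 SE and was not called (adjusted p = 0.618).

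Among 5 tested genes of the receptor and its partners, 1 was called, downward. Ahr was at 6.10, 5.89, 6.26 and 5.64 with vehicle and 6.68, 6.68, 6.42 and 5.79 with TCDD. These groups overlapped, since TCDD replicate 4 lay among the vehicle arrays, and the change of 0.42 ± 0.19 SE was not called (adjusted p = 0.271), although it was without that array (adjusted p = 0.0408). Hsp90aa1, a chaperone that holds the unliganded receptor, fell by 0.35, and its call ended on leaving out any of 4 arrays (highest adjusted p 0.0603 without TCDD replicate 2). Among 5 tested enzymes of tryptophan breakdown, a pathway that yields AhR ligands, Haao rose by 0.68 ± 0.12 SE and no other was called. Among 23 tested glutathione and NRF2 genes 1 was called, against 6.71% of all genes tested in either direction. That was Gstp3, a glutathione transferase, which fell by 1.32 ± 0.13 SE. It went from 11.41, 11.22, 11.18 and 11.21 to 10.05, 9.75, 9.86 and 10.07. The list had 2 falls without TCDD replicate 2 or Cl-BBQ replicate 3, and 3 without Cl-BBQ replicate 1. Nqo1, which rose, was counted among the AhR targets and was not in this list. Of 13 tested retinoid and vitamin D genes, the retinoic acid receptor gene Rara rose by 0.72 ± 0.13 SE and the retinal reductase gene Dhrs3 fell by 1.45 ± 0.24 SE. The vitamin D receptor gene Vdr fell by 0.70, and its call ended on leaving out any of 5 arrays (highest adjusted p 0.0715 without TCDD replicate 4).

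The windows around the transcription starts of 4 AhR targets are shown because they hold the core GCGTG, and targets without it are not shown. Each runs from 250 bases before to 50 after the start on the gene's own strand, from RefSeq on GRCm38.p6, with the core GCGTG, or CACGC where it lies on the other strand, in capitals. The windows are chr9:57697363-57697662 on the + strand for Cyp1a1, chr17:79715012-79715311 on the - strand for Cyp1b1, chr3:65528197-65528496 on the + strand for Tiparp and chr13:74292282-74292581 on the - strand for Ahrr. That of Il12rb2, which had the largest rise of all genes and was added for that reason after its value was seen, is chr6:67376139-67376438 on the - strand.
Cyp1a1: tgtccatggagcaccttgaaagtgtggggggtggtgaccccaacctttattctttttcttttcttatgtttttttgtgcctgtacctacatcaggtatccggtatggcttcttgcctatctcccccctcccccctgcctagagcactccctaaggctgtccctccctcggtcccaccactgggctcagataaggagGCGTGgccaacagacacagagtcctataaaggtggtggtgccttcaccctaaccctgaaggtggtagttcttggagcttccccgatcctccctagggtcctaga
Cyp1b1: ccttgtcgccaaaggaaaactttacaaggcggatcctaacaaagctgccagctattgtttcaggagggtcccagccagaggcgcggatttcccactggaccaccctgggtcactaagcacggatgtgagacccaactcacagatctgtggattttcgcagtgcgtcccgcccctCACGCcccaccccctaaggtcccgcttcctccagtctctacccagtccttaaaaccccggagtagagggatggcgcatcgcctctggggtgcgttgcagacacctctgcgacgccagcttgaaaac
Tiparp: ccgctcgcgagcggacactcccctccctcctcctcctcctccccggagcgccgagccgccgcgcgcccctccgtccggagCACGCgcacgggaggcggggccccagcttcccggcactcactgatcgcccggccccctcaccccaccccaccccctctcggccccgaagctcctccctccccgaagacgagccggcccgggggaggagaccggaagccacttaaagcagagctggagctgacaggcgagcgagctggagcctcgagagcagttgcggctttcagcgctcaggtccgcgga
Ahrr: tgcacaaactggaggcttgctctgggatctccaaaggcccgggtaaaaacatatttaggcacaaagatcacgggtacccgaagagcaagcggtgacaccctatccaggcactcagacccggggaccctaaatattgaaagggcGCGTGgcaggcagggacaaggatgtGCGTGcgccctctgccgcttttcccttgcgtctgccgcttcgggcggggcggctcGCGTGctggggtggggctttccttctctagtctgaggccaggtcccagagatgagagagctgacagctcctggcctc
Il12rb2: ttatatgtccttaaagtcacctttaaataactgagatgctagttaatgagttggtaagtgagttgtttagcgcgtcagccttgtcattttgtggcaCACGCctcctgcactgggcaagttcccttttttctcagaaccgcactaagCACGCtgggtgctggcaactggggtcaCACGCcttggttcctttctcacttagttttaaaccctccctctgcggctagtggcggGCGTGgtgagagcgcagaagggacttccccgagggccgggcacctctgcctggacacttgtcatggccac
Cyp1a1, Cyp1b1 and Tiparp had 1 match each, Ahrr had 3 and Il12rb2 had 4. The short core alone was common, in 49.0% of 406 windows of genes called higher, 48.0% of 11621 windows of tested genes not called and 32.4% of all 32851 windows. The longer TNGCGTG, which contains the short core and was searched on both strands, occurred in 10.8% of windows of genes called higher, 11.7% of those called higher at least 2-fold, 7.63% of those called lower and 7.63% of those not called. Median GC content was 60.0% in the windows of higher genes and 60.3% in those of genes not called. Among the 12 largest rises, 9 had a window in the table. Those of Il12rb2, Pltp and Cyp1b1 held GCGTG and those of Gpr15, Gzmb, Gzma, Asb2, Cxcr6 and Myo1f did not. These are matches of letters within 300 bases, not binding sites.

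Of 19 tested granule and death ligand genes of cytotoxic cells, 10 rose, 8 of them with any 1 array left out, 9 were not called, and the median change was 0.42. Markers of CD8+ T cells, which also use these genes, averaged 5.28 to 5.55 on the vehicle arrays and 5.34 to 6.01 on the TCDD arrays, with Cd8a at 4.17 and 4.75 and Cd8b1 at 6.74 and 6.48. Neither was called by limma, 1 of the 2 had an unadjusted p under 0.05, and their part in the result was not tested. Gzmb, the protease that killer cells deliver into targets, was at 7.04, 7.37, 7.33 and 6.66 with vehicle and 10.85, 10.68, 10.81 and 10.74 with TCDD. Every TCDD array of Gzmb lay far above every vehicle array, and the change was 3.67 ± 0.17 SE, or 12.7-fold (adjusted p = 6.65e-09). Gzma, a second granule protease, went from 4.73, 4.39, 4.72 and 4.67 to 8.18, 8.02, 7.81 and 8.30. The groups of Gzma were also far apart, with vehicle near the floor and a change of 3.45 ± 0.18 SE. Prf1, encoding the pore-forming perforin, was at 5.23, 4.57, 6.13 and 5.15 with vehicle, the widest vehicle spread among these genes, and at 7.38, 6.78, 7.50 and 7.30 with TCDD. All TCDD arrays of Prf1 exceeded the highest vehicle array, vehicle replicate 3, and the change was 1.97 ± 0.26 SE (adjusted p = 0.000248).

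Nkg7, a granule membrane protein needed for degranulation, was at 9.41, 9.09, 9.21 and 9.20 with vehicle and 11.29, 11.20, 11.07 and 11.19 with TCDD and rose by 1.96 ± 0.11 SE. Fasl, the death ligand, was at 5.50, 6.24, 6.25 and 5.24 with vehicle and 7.08, 6.86, 7.09 and 7.17 with TCDD, a change of 1.24 ± 0.22 SE without overlap. The cysteine protease inhibitor gene Cst7 (0.58 ± 0.10 SE) and the cathepsin gene Ctsw (1.08 ± 0.11 SE), both made by cytotoxic lymphocytes, rose with them, as did Cd160 (0.77 ± 0.16 SE). Sytl2, a Rab27 effector that docks secretory granules at the plasma membrane, went from 5.06, 5.39, 5.41 and 5.37 to 7.87, 7.93, 7.94 and 8.0. The TCDD arrays of Sytl2 were close together, and the change was 2.63 ± 0.15 SE (adjusted p = 6.02e-08). Of 9 measured granzyme genes 5 were tested and 3 rose; Gzmc was at 2.79, 2.82, 3.14 and 3.18 with vehicle, all below the floor, and rose by 1.34 ± 0.30 SE. Granzyme genes of this cluster are near-identical copies that probe sets may share. Gzmk, in contrast, was at 4.81, 4.93, 4.49 and 5.65 with vehicle and 4.81, 5.10, 5.42 and 5.35 with TCDD, overlapping groups (adjusted p = 0.713). Of 21 measured killer cell lectin-like receptor genes 4 were tested and none was called by limma, with 1 at an unadjusted p under 0.05.

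Receptors for interleukin 12 and interleukin 18 gave the largest change of the comparison. Of 8 tested receptors of this family 5 rose, with any 1 array left out as well, and the median change was 0.74. Il12rb2, the signalling chain that makes a T cell respond to interleukin 12, was at 5.75, 6.20, 5.38 and 5.75 with vehicle and 10.50, 10.41, 9.82 and 10.22 with TCDD. The lowest TCDD array exceeded the highest vehicle array by far, and the change was 4.47 ± 0.17 SE, or 22.1-fold (adjusted p = 2.58e-09). Its partner Il12rb1, shared with the interleukin 23 receptor, rose by only 0.71 ± 0.14 SE. The interleukin 18 receptor chains Il18rap and Il18r1 rose by 1.88 ± 0.21 SE and 1.10 ± 0.13 SE. Il18rap was at 4.62, 4.81, 4.56 and 4.73 with vehicle and 6.98, 5.99, 6.59 and 6.68 with TCDD, without overlap. Il27ra, a receptor chain for a cytokine that can induce interleukin 10, rose by 0.64 ± 0.11 SE (adjusted p = 0.00178).

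Among receptors of the common gamma chain, interleukin 6 and interleukin 10 families, 5 of 12 tested rose, and 3 did without vehicle replicate 1, vehicle replicate 4 or TCDD replicate 1. Il7r, the receptor for the survival cytokine interleukin 7, was at 5.92, 6.23, 5.48 and 5.47 with vehicle and 7.38, 7.04, 6.94 and 7.19 with TCDD. All TCDD arrays of Il7r were the higher ones, by 1.36 ± 0.18 SE on average. Il4ra (0.83 ± 0.11 SE) and Il10ra (0.61 ± 0.13 SE) rose and kept their calls with any array left out. Il2ra, the inducible interleukin 2 receptor chain, rose by 0.66, and its call ended on leaving out any of 6 arrays (highest adjusted p 0.112 without vehicle replicate 4). Il21r rose by 0.57, its call ending on leaving out any of 4 (highest adjusted p 0.0661 without vehicle replicate 1). The interferon gamma receptor had its ligand-binding chain Ifngr1 higher, from 8.12, 8.29, 8.05 and 7.90 to 8.99, 9.0, 8.94 and 8.95, a change of 0.88 ± 0.10 SE. Its other chain Ifngr2 was at -0.50 ± 0.20 SE and was called only without Cl-BBQ replicate 4 (adjusted p = 0.027, against 0.205).

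Downstream of these receptors, 2 of 23 tested JAK, STAT and SOCS genes rose, both feedback inhibitors. None of the 9 JAK and STAT genes was called by limma, with 2 at an unadjusted p under 0.05. Cish, which is induced by STAT5 and damps cytokine signalling, was at 5.86, 5.38, 6.16 and 5.82 with vehicle and 7.14, 7.30, 7.10 and 7.10 with TCDD. The TCDD arrays of Cish were close together and above all vehicle arrays, with a change of 1.36 ± 0.18 SE (adjusted p = 0.000251). Socs3, a brake on STAT3 signalling, rose by 0.83 ± 0.19 SE, with vehicle arrays at 5.68, 6.08, 6.85 and 6.27 and TCDD arrays at 7.03, 6.88, 7.19 and 7.08. The groups of Socs3 only just did not overlap.

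Of 21 tested cytokine genes 3 rose, against 3.21% of all genes tested, and none was called lower, with a median change of 0.03. Il10, the main anti-inflammatory cytokine of T cells, was at 6.05, 5.57, 5.97 and 6.03 with vehicle and 7.73, 7.48, 7.49 and 7.80 with TCDD. The groups were separate, and Il10 rose 3.29-fold, by 1.72 ± 0.15 SE (adjusted p = 4.9e-06). Tgfb3, a ligand of the TGF-beta family, was at 4.92, 4.79, 4.68 and 5.46 with vehicle and 6.34, 5.70, 6.19 and 6.22 with TCDD, a rise of 1.15 ± 0.18 SE. Furin, the protease that releases TGF-beta from its precursor, rose by 1.05 ± 0.13 SE. Tgfb3 and Furin were the 2 calls among 16 tested genes of that pathway, against 3.21% of all genes tested called higher. Il21, which supports B cells and follicular help, rose by 0.39, and its call ended on leaving out any of 7 arrays (highest adjusted p 0.109 without TCDD replicate 2). Ifng, the signature cytokine of Th1 cells, was at 6.74, 5.88, 6.04 and 5.87 with vehicle and 6.36, 6.35, 6.58 and 6.68 with TCDD. The highest of the 8 values was that of vehicle replicate 1, so the groups overlapped, and the change of 0.36 ± 0.20 SE was not called (adjusted p = 0.402). Of 7 chemokine ligand genes Ccl4, Ccl5 and Xcl1 were called higher, but without TCDD replicate 3 none was, and without vehicle replicates 2 or 4 or TCDD replicates 1, 2 or 4 only 1 was.

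Several receptors that guide lymphocytes to mucosal and inflamed tissue rose. Of 19 tested chemokine receptors and Gpr15, 5 rose with any 1 array left out, with a median of 0.20 for the list. Gpr15, a receptor that draws T cells to the large intestine, was at 3.76, 4.77, 3.73 and 3.62 with vehicle and 8.64, 8.19, 8.19 and 8.02 with TCDD. Vehicle replicate 2 was above the floor and the other vehicle arrays below it, yet all TCDD arrays were far higher, by 4.29 ± 0.23 SE (adjusted p = 3.74e-08). Cxcr6, found on tissue-resident lymphocytes, went from 6.24, 5.97, 6.12 and 6.66 to 9.29, 8.79, 9.15 and 8.82. The change of Cxcr6 was 2.76 ± 0.16 SE, with a wide gap between the groups. Ccr9, the receptor for small intestinal homing, was at 4.54, 4.16, 3.88 and 3.67 with vehicle, below the floor on 3 of 4 arrays, and at 5.44, 5.49, 5.98 and 5.75 with TCDD. It rose by 1.61 ± 0.23 SE, while Ccr2 and Ccr4, receptors for inflammatory and skin chemokines, rose by 1.50 ± 0.14 SE and 1.50 ± 0.20 SE. Cxcr4, the receptor for CXCL12, fell by 0.79, its groups overlapped, and leaving out vehicle replicate 1 ended the call (adjusted p = 0.0518). Ccr7, which leads T cells into lymph nodes, was at -0.43 ± 0.18 SE and was called only without vehicle replicate 3 (adjusted p = 0.0172, against 0.224).

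Some genes that build selectin ligands, which let cells roll on inflamed endothelium, also rose. Gcnt1, the enzyme that starts the core 2 O-glycans of these ligands, went from 6.46, 6.35, 5.92 and 5.82 to 7.56, 7.42, 7.13 and 7.27. St3gal6, a sialyltransferase of the same pathway, went from 4.42, 4.34, 4.16 and 4.85 to 5.71, 5.63, 5.85 and 5.64. Selplg, the protein PSGL-1 that carries the glycans, was at 10.73, 10.71, 10.25 and 10.66 with vehicle and reached 11.47, 11.33, 11.46 and 11.34. These were the 3 rises among 15 tested egress and selectin ligand genes, by 1.21 ± 0.15 SE, 1.27 ± 0.14 SE and 0.81 ± 0.11 SE, and no member fell. Gpr55, a lysophospholipid receptor outside the lists and named after its value was seen, rose by 1.92 ± 0.15 SE (5.49, 6.04, 5.79 and 6.18 against 7.82, 7.53, 7.77 and 8.05).

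Integrin chains moved in both directions. Of 18 tested genes matched by the family's symbols, Itgae and Itga2 rose and Itgb1, Itga4, Itgal and the centromere protein gene Itgb3bp, which shares only the prefix, fell. Itgb1, the common beta chain of the matrix-binding integrins, was at 9.83, 9.60, 9.43 and 9.51 with vehicle and 6.61, 6.71, 6.09 and 6.42 with TCDD. No TCDD array came near a vehicle array, and Itgb1 was 8.79-fold lower, a change of -3.14 ± 0.13 SE (adjusted p = 3.58e-09). Itgae, the alpha chain CD103 that binds E-cadherin on epithelium, was at 4.74, 4.78, 4.83 and 4.60 with vehicle and 7.71, 7.76, 7.31 and 7.52 with TCDD. Its values were tightly grouped on both sides, with a rise of 2.84 ± 0.18 SE. Itga2, the collagen-binding chain CD49b, which pairs with the product of Itgb1, rose from 4.01, 4.44, 4.25 and 4.11 to 5.94, 6.21, 6.40 and 6.00, by 1.93 ± 0.18 SE. Itga4, a partner of Itgb1 and Itgb7 in binding VCAM-1 and MAdCAM-1, fell by 1.13 ± 0.10 SE, and the LFA-1 chain Itgal fell by 0.42 ± 0.09 SE. Thus the collagen-binding alpha chain and its beta chain changed in opposite directions.

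Among semaphorins, plexins and neuropilins, guidance molecules that T cells use in contacts with other cells, 3 of 15 tested fell and 1 rose, each with any array left out. Nrp1, a semaphorin co-receptor found on thymus-derived regulatory T cells, was at 7.98, 8.04, 7.34 and 7.75 with vehicle and 5.34, 4.51, 4.92 and 4.85 with TCDD. The sets of arrays were clearly apart, with a change of -2.87 ± 0.21 SE, or 7.31-fold lower. Sema4a fell from 7.40, 7.27, 6.90 and 7.55 to 5.49, 5.60, 5.63 and 5.90, a change of -1.63 ± 0.20 SE. Plxnc1, the receptor of Sema7a, fell by 1.14 ± 0.20 SE, while Sema7a itself rose by 0.95 ± 0.14 SE.

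Regulatory and inhibitory genes gave a mixed picture. Of 15 tested coinhibitory receptors and ligands 6 rose with any 1 array left out, and 2 were called lower. Cd96, a receptor for nectin-like ligands, was at 7.83, 8.38, 8.29 and 7.96 with vehicle and 9.67, 9.48, 9.52 and 9.75 with TCDD. That was the rise with the smallest adjusted p in this list, at 1.49 ± 0.13 SE (adjusted p = 7.02e-06). Havcr2, encoding TIM-3, rose by 1.36 ± 0.29 SE, with arrays at 4.90, 4.75, 5.20 and 4.13 with vehicle and 6.39, 5.75, 6.64 and 5.63 with TCDD. Cd200r1, the receptor of the inhibitory ligand CD200, rose by 0.99 ± 0.21 SE, Ctla4 by 0.71 ± 0.10 SE and Lag3 by 0.62 ± 0.08 SE. Lag3 was measured with little spread, with vehicle arrays at 10.33, 10.33, 10.27 and 10.30 and TCDD arrays at 10.92, 10.92, 10.90 and 10.98. The 2 lower calls were of Cd200 and Btla. That of Cd200 ended on leaving out any of 3 arrays (highest adjusted p 0.0654 without vehicle replicate 1) and that of Btla on leaving out any of 5 (highest adjusted p 0.0976 without vehicle replicate 2). Pdcd1, encoding PD-1, was at 8.36, 8.37, 8.08 and 8.25 with vehicle and 8.51, 8.23, 7.73 and 8.09 with TCDD. Those groups overlapped (change -0.12 ± 0.15 SE, adjusted p = 0.757), and without TCDD replicate 3 the change was 0.0145.

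Foxp3, the defining factor of regulatory T cells, was at 7.58, 7.66, 7.34 and 7.21 with vehicle and 7.62, 7.17, 6.78 and 7.11 with TCDD. The groups overlapped and Foxp3 was not called (change -0.28 ± 0.17 SE, adjusted p = 0.451). Of 19 tested regulatory T cell genes 6 rose, 3 of them (Itgae, Ctla4 and the costimulator Tnfrsf9) with any array left out, and Nrp1 fell, with a second fall without vehicle replicate 3 or Cl-BBQ replicate 4. Among genes of type 1 regulatory cells, which make interleukin 10 without Foxp3, 7 of 12 tested rose, with a median of 0.52. The share called higher over all genes tested was 3.21%. The type 1 regulatory genes that rose included Il10. The others were Itga2, Havcr2, Lag3, Il21, Prdm1 and Bhlhe40. Prdm1, encoding the repressor Blimp-1, was at 6.10, 5.49, 5.46 and 5.54 with vehicle and 6.95, 6.72, 6.89 and 6.10 with TCDD. Its groups almost met, at vehicle replicate 1 and TCDD replicate 4, and the rise was 1.02 ± 0.22 SE (adjusted p = 0.0107). Bhlhe40, a factor of cytokine-producing helper cells, rose by 1.22 ± 0.17 SE.

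**Figure D2:**
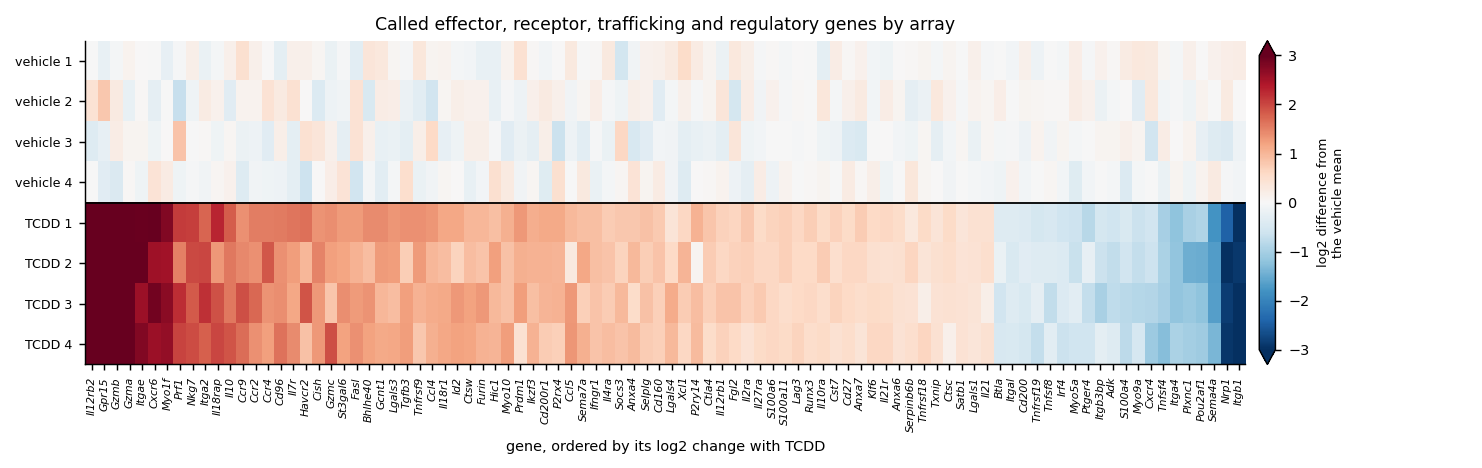
Difference of each array (rows) from the vehicle mean, on the log2 scale and limited to 3 units by the colours, for the 92 called genes (columns) of the effector, receptor, trafficking and regulatory lists, of which 72 rose. The 4 TCDD rows run from red to blue in the same gene order, with P2ry14 in TCDD replicate 2 among the few pale cells, while the vehicle rows stay pale, apart from cells such as Gpr15 in replicate 2 and Prf1 in replicate 3.

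Transcription factors changed in a few members. Of 26 tested lineage factors 5 rose, against 3.21% of all genes tested, and these held with any array left out. Irf4 fell by 0.52, a call that ended on leaving out any of 8 arrays (highest adjusted p 0.105 without TCDD replicate 4). Id2, an inhibitor of E proteins that favours effector cells, was at 6.97, 7.20, 6.91 and 7.05 with vehicle and 8.19, 7.70, 8.34 and 8.24 with TCDD. The rise of Id2 was 1.08 ± 0.14 SE, with TCDD replicate 2 the lowest of its group. Hic1, a repressor found in intestinal T cells, rose by 1.03 ± 0.14 SE, and Runx3, the factor of cytotoxic lineages, by 0.62 ± 0.08 SE. The Th1 factor gene Tbx21 was at 6.38, 6.32, 6.79 and 6.99 with vehicle and 7.30, 6.71, 7.03 and 6.80 with TCDD, with overlap and no call (adjusted p = 0.262). The Th2 factor gene Gata3 was higher by 0.48 ± 0.14 SE and was called only without vehicle replicate 1 or Cl-BBQ replicate 1 (adjusted p as low as 0.0141, against 0.0576). Irf8 was lower on every TCDD array (6.99, 7.04, 7.98 and 6.63 against 6.14, 5.16, 6.50 and 6.55) but was not called (adjusted p = 0.085). Among 5 Ikaros family genes, Ikzf3, encoding Aiolos, rose by 1.01 ± 0.10 SE, with arrays at 7.96, 8.07, 7.65 and 7.99 with vehicle and 9.0, 8.96, 8.81 and 8.96 with TCDD. Zbtb32, a repressor that restrains T cell responses, fell by 1.37 ± 0.22 SE, and it was named after its value was seen. Pou2af1, a coactivator of lymphoid genes, fell by 1.17 ± 0.16 SE.

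Of 36 tested genes of the antigen receptor and its signalling 4 rose, against 3.21% of all genes tested, and none was called lower. All TCDD arrays lay above all vehicle arrays for 14 of the 36, against 6.31% of all genes, and the median change was 0.13. Sla2, an adaptor that promotes the removal of receptor complexes from the surface, was at 7.85, 7.88, 7.54 and 7.90 with vehicle and 8.86, 8.70, 8.71 and 8.62 with TCDD. It rose by 0.93 ± 0.10 SE, while the related Sla and the scavenger-type receptor gene Cd6 rose by 0.48 ± 0.11 SE and 0.45 ± 0.10 SE. Cd69, an early activation marker that also retains cells in tissue, was at 7.41, 7.73, 7.54 and 7.63 with vehicle and 8.51, 8.80, 8.71 and 8.77 with TCDD. With the costimulator gene Tnfrsf9 (1.12 ± 0.15 SE) and Nfkbiz, a nuclear regulator of NF-kappaB targets (1.10 ± 0.10 SE), Cd69 (1.12 ± 0.11 SE) made up the 3 rises among 22 tested early activation genes. Irf4 was the single lower call of that list too, with the dependence on single arrays given above. The TNF family ligand gene Tnfsf4, encoding OX40L, fell by 1.06 ± 0.15 SE, and Cd27 rose by 0.58 ± 0.12 SE. None of 19 tested dual-specificity phosphatases was called by limma, with 5 at an unadjusted p under 0.05, and 1 was called without TCDD replicate 2 or Cl-BBQ replicate 4.

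Other signalling genes rose too, of those named here Rasgrp4 by the most. Rasgrp4, an activator of Ras, was at 5.62, 4.92, 5.69 and 5.52 with vehicle and 7.67, 8.11, 7.54 and 8.0 with TCDD. All TCDD arrays of Rasgrp4 were higher, by 2.39 ± 0.19 SE, or 5.25-fold. Pik3r5 and Pik3ap1, a regulatory subunit and an adaptor of PI3 kinases, rose by 1.15 ± 0.11 SE and 1.24 ± 0.16 SE. They belong to 5 higher of 15 tested PI3 kinase genes, a list drawn up after values were seen, which fell to 3 without vehicle replicate 1 and to 2 without TCDD replicates 3 or 4. F2r, the thrombin receptor, went from 7.82, 7.74, 8.01 and 7.81 to 9.11, 8.91, 8.94 and 8.76, by 1.09 ± 0.10 SE. Rgs1, which shuts off chemokine receptor signals, rose by 0.81 ± 0.16 SE, and the plasma membrane calcium pump gene Atp2b4 by 1.02 ± 0.17 SE. Gimap7 was the single call among 8 genes of its GTPase family, at 9.06, 8.92, 9.17 and 9.30 with vehicle and 10.21, 10.35, 10.57 and 10.46 with TCDD, a rise of 1.29 ± 0.11 SE. P2rx4, an ATP-gated channel, rose by 0.98 ± 0.19 SE.

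Of 4 tested interferon-induced transmembrane genes 2 rose, by large amounts. Ifitm3, which blocks virus entry at endosomes, was at 6.46, 6.85, 6.76 and 6.76 with vehicle and 9.45, 8.83, 9.56 and 9.31 with TCDD. All TCDD values were far above the vehicle values, and the rise was 2.58 ± 0.19 SE, or 5.99-fold (adjusted p = 1.1e-06). Ifitm2, its neighbouring paralogue, was more variable with vehicle, at 6.36, 5.50, 6.06 and 4.79, and reached 8.06, 7.97, 8.32 and 7.97 with TCDD. The rise was 2.40 ± 0.30 SE, and the paralogues are alike enough that probe sets may share signal. Of 24 other interferon-stimulated genes, Oas2 and Ddx58 were called higher, against 3.21% of all genes tested, with a median of 0.10. Neither was called without any one of 9 arrays (vehicle replicates 1, 2 or 3, TCDD replicates 3 or 4 or Cl-BBQ replicates 2, 3, 4 or 5), with the highest adjusted p 0.143 for Oas2 and 0.153 for Ddx58 without TCDD replicate 3.

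Several other genes were among the largest rises. Pltp, which moves phospholipids between lipoproteins, was at 4.16, 4.03, 4.62 and 4.53 with vehicle and 7.92, 7.92, 7.49 and 8.19 with TCDD. The change was 3.55 ± 0.16 SE (adjusted p = 5.25e-09), and it was the single call among 8 tested genes of lipid transfer and efflux. Asb2, a substrate receptor of a cullin ubiquitin ligase, went from 5.09, 5.03, 4.59 and 4.66 to 8.30, 8.21, 8.13 and 7.82. It rose by 3.27 ± 0.15 SE, again the single call in its family, of 8 tested. Myo1f, a motor that links membranes to actin in immune cells, went from 5.10, 5.34, 5.36 and 5.60 to 8.14, 7.87, 8.05 and 7.99. It rose by 2.66 ± 0.11 SE, and Myo10, a motor of filopodia, by 1.02 ± 0.13 SE. Lilrb4a, an inhibitory receptor of the immunoglobulin family with a near-identical neighbour, was at 3.67, 4.71, 3.83 and 2.76 with vehicle and 6.48, 6.01, 6.77 and 6.23 with TCDD. Its vehicle arrays were the most scattered of these genes and its change was 2.63 ± 0.35 SE (adjusted p = 0.000214).

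**Figure D3:**
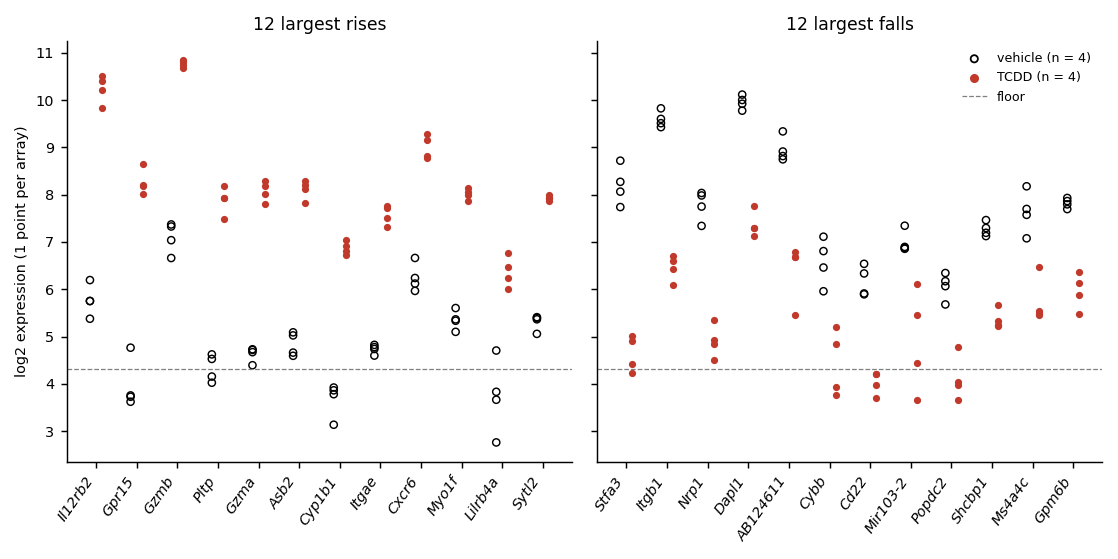
Log2 expression on each array (vertical axis) for the 12 largest rises, left, and the 12 largest falls, right, among called genes whose groups did not overlap. Open circles are the 4 vehicle and filled circles the 4 TCDD arrays, and the dashed line is the floor of 4.31; every filled circle lies beyond all open circles of its gene, with the narrowest gaps at Mir103-2, Ms4a4c and Cybb.

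Further rises outside the lists were named after their values were seen. Cldnd1, a claudin-like membrane protein gene, was at 8.49, 8.08, 7.93 and 8.28 with vehicle and 10.50, 10.33, 10.23 and 10.24 with TCDD, a rise of 2.13 ± 0.12 SE. Lztfl1, a regulator of ciliary trafficking, rose by 2.11 ± 0.15 SE, Cd7, an immunoglobulin family receptor of T and natural killer cells, by 2.04 ± 0.18 SE, and Plac8 by 2.04 ± 0.14 SE. Snx9 (1.90 ± 0.11 SE) and Abi3 (1.85 ± 0.13 SE), which act on membrane curvature and actin, rose too. Slamf7, a receptor of activated cytotoxic cells, went from 6.86, 7.05, 7.32 and 6.89 to 9.02, 8.55, 8.81 and 8.76, by 1.76 ± 0.18 SE. Ecm1, an extracellular matrix protein gene, rose by 1.42 ± 0.16 SE, and Emp1 by 1.63 ± 0.31 SE, with vehicle replicate 4 of Emp1 far below the other vehicle arrays. Of 20 tested S100, annexin and galectin genes 8 rose, and 5 did without vehicle replicate 3 or TCDD replicates 1 or 2. S100a4 was called lower, but not without any one of 5 arrays (vehicle replicates 1, 2 or 3 or TCDD replicates 3 or 4). Lgals3, encoding galectin-3, led them at 1.17 ± 0.14 SE, and the calcium-binding protein genes S100a6 and S100a11 rose by 0.63 ± 0.08 SE and 0.63 ± 0.08 SE. Of 15 tested stefin, cystatin and cathepsin genes 4 rose, Ctsa (0.84 ± 0.09 SE), Ctsc, Ctsw and Cst7, and 1 fell.

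That fall, of Stfa3, was the largest among called genes with a single symbol. Stfa3, a member of the stefin A cluster of intracellular cysteine protease inhibitors, was at 8.72, 8.27, 8.06 and 7.74 with vehicle and 5.00, 4.43, 4.91 and 4.23 with TCDD. The groups were far apart, with a change of -3.56 ± 0.33 SE, or 11.8-fold lower (adjusted p = 1.21e-05), though the copies of this cluster are so alike that their signals may be shared. Dapl1, linked to epithelial differentiation and cell death, went from 9.92, 9.78, 10.12 and 10.00 to 7.29, 7.12, 7.75 and 7.30. With little spread in either group, Dapl1 fell by 2.59 ± 0.15 SE. AB124611, a gene of unassigned function, went from 8.91, 8.82, 8.75 and 9.34 to 6.78, 5.47, 6.68 and 6.68. TCDD replicate 2 of AB124611 was well below the other TCDD arrays, and the change was -2.55 ± 0.28 SE.

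Gpm6b, a proteolipid family membrane protein gene best known from neurons, went from 7.80, 7.93, 7.86 and 7.70 to 6.36, 6.14, 5.48 and 5.88, a change of -1.86 ± 0.28 SE. Popdc2, which binds cyclic AMP in heart muscle, went from 6.17, 6.34, 5.68 and 6.07 to 4.79, 3.98, 4.05 and 3.65, and 3 of its 4 TCDD arrays were below the floor. Ms4a4c, a tetraspanning membrane protein gene, was at 7.57, 7.70, 8.18 and 7.08 with vehicle and 5.54, 5.47, 5.50 and 6.47 with TCDD. TCDD replicate 4 of Ms4a4c was nearest to the vehicle arrays, and the change was -1.89 ± 0.28 SE. The neuritin gene Nrn1, an anergy-associated membrane protein, fell by 1.44 ± 0.21 SE, and Ptger4, a prostaglandin E2 receptor, fell by 0.59 ± 0.13 SE.

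A pair of genes known from other blood cells fell as well. Cybb, the catalytic subunit of the phagocyte NADPH oxidase, was at 6.81, 7.11, 6.46 and 5.96 with vehicle and 5.20, 3.76, 4.85 and 3.94 with TCDD. It fell by 2.15 ± 0.33 SE (adjusted p = 0.000698), with 2 TCDD arrays below the floor. Of 8 tested monocyte and macrophage markers Cybb and Ly6c2 fell and Cd68 rose, and the calls of Ly6c2 and Cd68 each ended on leaving out any of 5 arrays (highest adjusted p 0.112 without TCDD replicate 2 for Ly6c2 and 0.0805 without vehicle replicate 3 for Cd68). Csf1r was at 4.43 with vehicle and 4.26 with TCDD, while Cd14 and Lyz2 were below the floor in both groups. Cd22, an inhibitory lectin of B cells, was at 5.91, 6.54, 5.89 and 6.33 with vehicle and 4.21, 3.71, 3.97 and 4.22 with TCDD. All TCDD values of Cd22 were below the floor, and it fell by 2.14 ± 0.16 SE. Cd79a was at 4.55 and 4.56, Pax5 at 4.77 and 4.75 and Cd79b at 4.69 and 4.79, so these 3 B cell markers were near the floor in both groups. Kit, a marker of mast cells, rose by 1.19 ± 0.15 SE, while the mast cell protease gene Cpa3 was at 2.46 and 2.29, below the floor.

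The probe set assigned to Mir103-2, a microRNA locus, fell from 7.34, 6.90, 6.87 and 6.86 to 3.66, 4.44, 6.10 and 5.45. The vehicle arrays were close together and the TCDD arrays widely spread, with TCDD replicate 3 nearest to vehicle. The change was -2.08 ± 0.44 SE (adjusted p = 0.00802). It was 1 of 2 calls among 131 tested microRNA loci, against 6.71% of all genes tested in either direction. The other was Mir3110, which rose by 0.64. The call of Mir3110 ended on leaving out any of 7 arrays (highest adjusted p 0.0925 without TCDD replicate 1). Targets were labelled from oligo-dT primed cDNA, so these values are of transcripts over the locus and not of mature microRNA. The mature sequences of the Mir103-2 hairpin (chr2:131288052-131288137, + strand, GRCm38.p6, RefSeq) are shown to identify it, with the seed, bases 2 to 8, in capitals, and the arms have different seeds.
mmu-miR-103-2-5p: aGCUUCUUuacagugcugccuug
mmu-miR-103-3p: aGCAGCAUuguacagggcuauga

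Cell cycle genes made up the largest group of falls. Across 8 lists with 261 distinct tested genes, 147 fell and 2 rose, against 3.5% and 3.21% of all tested genes. The share was highest for G2 and mitosis genes, 33 of 38 with a median change of -0.97, then kinetochore and spindle checkpoint genes, 29 of 38 (median -0.90), and DNA replication genes, 36 of 52 (median -0.70). With any 1 array left out 31, 20 and 28 of these held. Mki67, the standard proliferation marker, was at 9.64, 9.49, 9.38 and 9.24 with vehicle and 8.51, 8.23, 8.42 and 8.26 with TCDD. The groups were separate and Mki67 was 2.12-fold lower (adjusted p = 0.0017). Shcbp1, a protein of the dividing cell's midbody, had the largest fall of these genes, from 7.19, 7.46, 7.12 and 7.30 to 5.33, 5.68, 5.25 and 5.23, a change of -1.90 ± 0.13 SE. All cells in these samples had divided at least 2 times by the sort gate.

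Mitotic genes of several functions fell. The checkpoint kinase gene Bub1b was at 8.01, 7.71, 7.79 and 7.50 with vehicle and 6.38, 6.55, 6.58 and 6.18 with TCDD, and its partner Ttk at 6.87, 7.02, 6.95 and 7.05 with vehicle and 5.44, 5.41, 5.60 and 5.48 with TCDD. No TCDD array of either reached the vehicle range, and the changes were -1.33 ± 0.12 SE and -1.49 ± 0.14 SE. Cdc20, an activator of the anaphase-promoting complex, changed by -1.22 ± 0.13 SE, Tpx2, a spindle assembly factor, by -1.32 ± 0.16 SE, and the condensin subunit gene Ncaph by -1.39 ± 0.13 SE. Kinetochore genes Cenpk, Cenph and Cenpe changed by -1.45, -1.42 and -1.30. Of 31 tested kinesins 12 fell, among them the spindle motors Kif11 (-1.29 ± 0.10 SE), Kif15 (-1.30 ± 0.13 SE) and Kif23 (-1.48 ± 0.17 SE). Kif11 was at 8.56, 8.47, 8.31 and 8.30 with vehicle and 7.19, 7.14, 7.16 and 6.99 with TCDD, with clearly separate groups. The ciliary transport motor gene Kif3a was the one kinesin that rose.

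S phase genes fell alongside. Rrm1 and Rrm2, the subunits of ribonucleotide reductase, which makes DNA precursors, changed by -1.25 ± 0.12 SE and -1.09 ± 0.13 SE. Rrm2 was at 10.56, 10.64, 10.57 and 10.55 with vehicle and 9.37, 9.50, 9.58 and 9.53 with TCDD, with little spread. The DNA polymerase genes Pola1 and Pole changed by -1.05 and -1.09 and the ligase gene Lig1 by -1.31. Of 20 tested histone genes 11 fell, but 7 without vehicle replicate 1, and none rose. H1f5, a linker histone gene, was at 12.20, 11.97, 11.71 and 11.82 with vehicle and 11.17, 10.82, 11.05 and 10.77 with TCDD. H1f1 changed by -1.57 ± 0.32 SE, H2ac10 by -1.10 ± 0.13 SE and the variant gene H2az2 by -0.60 ± 0.09 SE, and probe sets of the replication-dependent histones may share signal between near-identical copies. Of 35 tested repair genes 13 fell, 7 with any array left out, among them Clspn (-0.89 ± 0.14 SE) and Rad51ap1 (-1.15 ± 0.20 SE). Maintenance of DNA methylation went the same way, with Hells (-1.31 ± 0.17 SE), Uhrf1 (-0.93 ± 0.14 SE) and Dnmt1 (-0.58 ± 0.10 SE) lower, as was the Polycomb methyltransferase gene Ezh2 (-0.84 ± 0.09 SE), 4 of 7 lower among 21 tested.

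The machinery of entry into the cycle was less uniform. Of 26 tested G1 cyclins, kinases, inhibitors and E2F genes, 6 fell and 1 rose. Cdk6, a kinase that starts the cycle, was at 8.29, 7.81, 6.94 and 7.17 with vehicle and 5.95, 5.81, 6.20 and 6.30 with TCDD. The vehicle arrays of Cdk6 were scattered but all above the TCDD arrays, and the change was -1.49 ± 0.30 SE. E2f8 fell by 1.15 ± 0.16 SE and the CDK inhibitor gene Cdkn2c changed by -0.93 ± 0.13 SE. Cdkn1a, encoding the inhibitor p21, was at 5.42, 5.66, 5.88 and 6.37 with vehicle and 7.35, 7.04, 6.30 and 6.84 with TCDD. TCDD replicate 3 lay below vehicle replicate 4, so the groups overlapped, and Cdkn1a rose by 1.05 ± 0.22 SE (adjusted p = 0.00705). It was the single call among 16 tested p53 response genes, and 1 of 2 without vehicle replicates 2 or 4. Nucleoporin genes, a list drawn up after values were seen, fell in 8 of 21 tested members, led by Nup205 (-0.71 ± 0.11 SE), and in 3 or 4 without any one of 6 arrays (all but vehicle replicate 4 and TCDD replicate 3 among the 8).

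**Figure D4:**
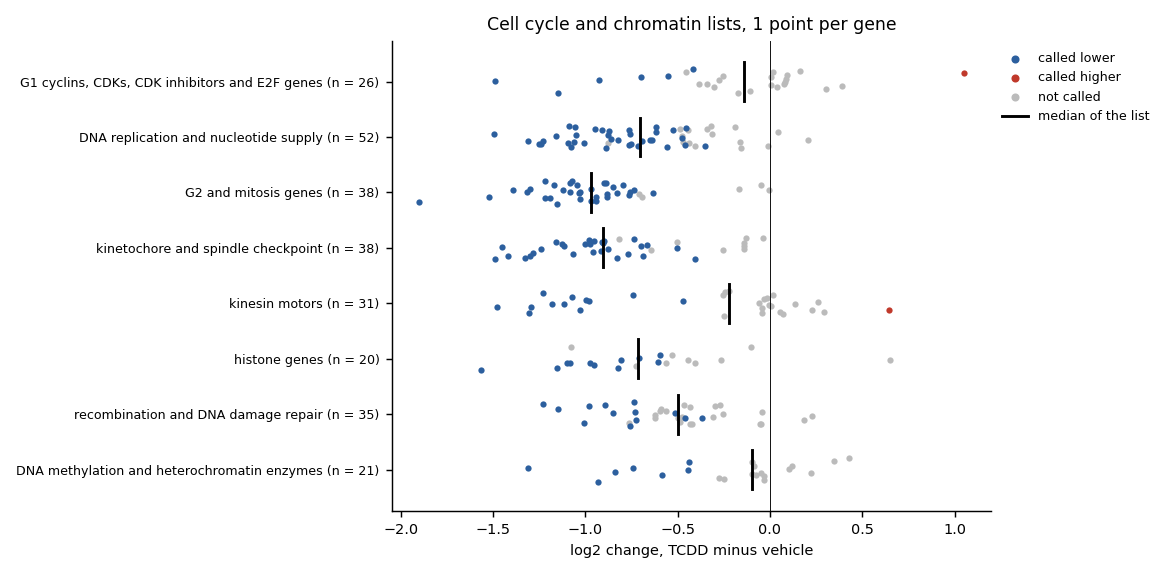
Change with TCDD (log2, horizontal axis) of each tested gene in the 8 cell cycle and chromatin lists (vertical axis, with the number of genes). Blue points were called lower, red points called higher and grey points not called, and black bars are list medians, which lie furthest to the left for G2 and mitosis genes (-0.97) and kinetochore genes (-0.90).

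Promoter windows of mitotic genes are shown because many such genes are known to hold a CHR element (TTTGAA) beside a CCAAT box. The DREAM complex and B-MYB bind the CHR, and NF-Y binds the CCAAT box. The genes shown were picked by smallest adjusted p among called genes whose window held both elements. That they hold both is therefore not a result. Windows run from 250 bases before to 50 after the start, with matches in capitals, so that TTCAAA and ATTGG are the same elements on the other strand. They lie at chr2:118597961-118598260 on the + strand for Bub1b, chr11:99024140-99024439 on the - strand for Top2a and chr9:83834439-83834738 on the + strand for Ttk (RefSeq, GRCm38.p6).
Bub1b: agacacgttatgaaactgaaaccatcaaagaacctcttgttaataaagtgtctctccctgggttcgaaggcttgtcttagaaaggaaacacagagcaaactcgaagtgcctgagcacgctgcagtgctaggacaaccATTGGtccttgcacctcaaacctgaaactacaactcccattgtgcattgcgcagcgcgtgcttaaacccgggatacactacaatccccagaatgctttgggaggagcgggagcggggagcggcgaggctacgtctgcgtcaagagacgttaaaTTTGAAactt
Top2a: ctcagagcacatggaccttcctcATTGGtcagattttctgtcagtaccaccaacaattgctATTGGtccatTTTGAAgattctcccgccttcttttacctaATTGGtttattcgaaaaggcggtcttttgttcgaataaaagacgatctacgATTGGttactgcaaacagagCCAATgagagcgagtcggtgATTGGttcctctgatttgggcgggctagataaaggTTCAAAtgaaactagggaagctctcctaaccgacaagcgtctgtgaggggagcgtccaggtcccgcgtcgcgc
Ttk: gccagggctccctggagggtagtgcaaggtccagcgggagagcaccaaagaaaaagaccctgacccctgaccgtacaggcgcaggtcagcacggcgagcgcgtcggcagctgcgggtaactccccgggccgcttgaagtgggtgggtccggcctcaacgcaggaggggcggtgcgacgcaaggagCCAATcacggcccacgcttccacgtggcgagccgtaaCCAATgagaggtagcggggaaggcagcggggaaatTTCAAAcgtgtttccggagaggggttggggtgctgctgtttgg
TTTGAA occurred in 27.5% of 459 windows of genes called lower, 10.3% of those called higher, 11.5% of those tested and not called and 17.9% of all windows. CCAAT was found in 51.6%, 35.2%, 36.6% and 37.4% of the same sets. Both were present in 19.8% of windows of lower genes, 4.28% of those not called and 46.5% of 71 windows of G2, mitosis and kinetochore genes. The E2F-like TTTNNCGC stood in 16.3% of windows of lower genes and 7.75% of those not called. The letters of TTTGAA and CCAAT can share no more than an end base. Median GC content was 59.7% in windows of lower genes, 60.3% in those not called and 58.7% in those of the mitotic genes.

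Of 16 tested BCL2 family genes 2 were called, 1 higher and 1 lower, against 6.71% of all genes tested in either direction. The median change of the family was 0.05. Bcl2l11, encoding the death-promoting protein BIM, went from 6.72, 6.57, 6.63 and 6.73 to 7.33, 7.66, 7.78 and 7.85, and Bcl2, which restrains it, from 7.91, 7.85, 7.57 and 7.64 to 6.87, 6.84, 6.66 and 7.24. Both pairs of groups were separate, with a rise of 1.00 ± 0.16 SE and a change of -0.84 ± 0.15 SE. None of 14 tested caspase and inhibitor of apoptosis genes was called by limma, and none had an unadjusted p under 0.05.

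Metabolic genes changed in few members. Of 15 tested amino acid and one-carbon genes, the serine synthesis gene Psat1 fell by 0.68 ± 0.09 SE and the folate enzyme gene Mthfd1 changed by -0.85 ± 0.17 SE, while the amino acid carrier subunit gene Slc3a2 rose by 0.55 ± 0.10 SE. Slc7a1, an arginine carrier, fell by 0.45, a call lost without vehicle replicate 1 (adjusted p = 0.0521). Of 23 sterol and fatty acid synthesis genes 4 were called higher, but only Elovl6, which lengthens fatty acids, held with any array left out, at 0.80 ± 0.16 SE; 2 were left without vehicle replicate 2 or TCDD replicates 3 or 4, and 1 without vehicle replicate 4 or TCDD replicates 1 or 2. None of 71 oxidative phosphorylation, 60 ribosomal protein, 35 proteasome or 15 unfolded protein response genes was called by limma, with 3, 2, 1 and 3 at an unadjusted p under 0.05 and medians between -0.07 and -0.02. A single call appeared without TCDD replicate 3 for oxidative phosphorylation, without vehicle replicates 1 or 2 for ribosomal proteins and without vehicle replicate 3 for the unfolded protein response.

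**Figure D5:**
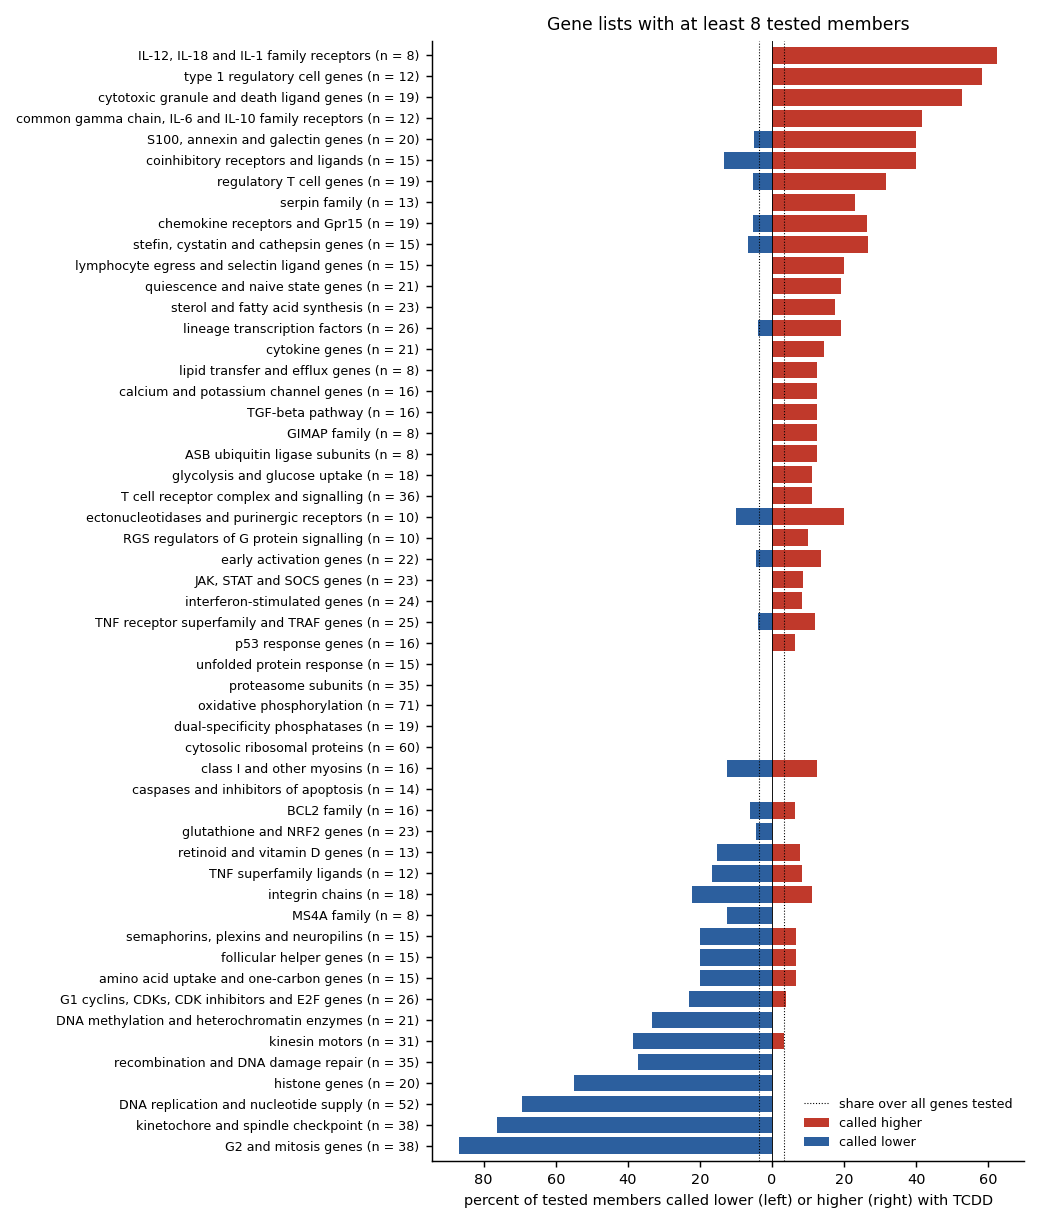
Percent of tested members called lower (blue, to the left) and higher (red, to the right) with TCDD for 53 gene lists with at least 8 tested members (n beside each name). Dotted lines are the shares over all tested genes, 3.5% lower and 3.21% higher; bars reach furthest right for IL-12, IL-18 and IL-1 receptors and furthest left for G2 and mitosis genes.

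TCDD was also set directly against Cl-BBQ, the series' other AhR ligand, given at 10 mg/kg on days 0, 1 and 2 to hosts of the 5 further arrays, so that dose, schedule and agent all differ. Only 3 of 12710 genes (0.0236%) were called, all higher with Cl-BBQ. Gzma was at 8.18, 8.02, 7.81 and 8.30 with TCDD and 8.85, 9.58, 9.75, 9.04 and 9.20 with Cl-BBQ, without overlap, a difference of 1.21 ± 0.17 SE. Il7r was at 7.38, 7.04, 6.94 and 7.19 with TCDD and 8.19, 8.44, 8.56, 7.90 and 8.42 with Cl-BBQ, and Nqo1 at 5.65, 5.36, 4.88 and 5.42 with TCDD and 6.63, 6.30, 6.43, 6.06 and 6.64 with Cl-BBQ. Both differed without overlap, by 1.16 ± 0.17 SE and 1.08 ± 0.16 SE, and all 3 genes had an adjusted p of 0.0392. The call of Gzma ended on leaving out any of 8 of the 13 arrays and those of Il7r and Nqo1 any of 10, with the highest adjusted p at 0.155 without Cl-BBQ replicate 2, and none was called with only the 2 groups in the fit, with a replicate block or without the filter. Genes not called may still differ. The 95% intervals of Cl-BBQ minus TCDD, which are not adjusted over genes, show this. They were -0.01 to 0.69 for Il12rb2, -0.18 to 0.76 for Gpr15 and -0.37 to 0.17 for Itgb1. Some lay wholly on one side of no difference, at -0.85 to -0.10 for Mki67 and 0.55 to 1.34 for Cyp1b1. So did those of Cyp1a1, at 1.08 to 2.18, and Gstp3, at -1.06 to -0.52 (adjusted p = 0.0506 for each).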

How the data were processed

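RNA of sorted, divided donor CD4+ T cells was labelled from oligo-dT primed cDNA and hybridised to 1 array per sample, per the labels' protocols. The deposited values are log2 expression per probe set, made by the authors with RMA, per the submitters' processing notes; its version is not given in those notes. RMA equalises the distributions of the arrays, so a shift of all transcripts would not be seen. Of 41345 probe sets, 23521 had a single gene symbol, 1814 had several and 16010 had none in the platform annotation. Each of 22180 genes was represented by 1 probe set, that of highest mean across all 13 arrays, and 12710 genes above 4.31 on at least 4 arrays were tested. Group means of all 13 arrays were fitted with limma 3.58.1 in R 4.3.3 (lmFit and eBayes, 10 residual and 4.22 prior degrees of freedom), two-sided, with Benjamini-Hochberg adjustment over all tested genes, and every adjusted p in the text is from limma. The code was tested on simulated data. The number of arrays limits the precision, and the p-values measure the spread between these arrays, called biological replicates in the labels. The 13 arrays were grouped by treatment: 4 vehicle, 4 TCDD and 5 Cl-BBQ, and vehicle was not compared with Cl-BBQ here.

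The genes and gene lists were chosen with earlier results of these data known. Named are the 12 largest rises and falls among called genes without overlap, up to 4 called members of each list with the smallest adjusted p, 15 fixed genes, the called genes of the direct comparison and further members chosen after their values were seen. Alternatives were the groups in the fit, a replicate block, the filter, centring, quantile normalization, a trend, array weights, averaging of probe sets and leaving out each array. Same-numbered TCDD and vehicle arrays had correlations of deviations of 0.0751, 0.0055, -0.0132 and -0.0434, and the labels give no pairing, so the numbers were not treated as pairs. Sequences are from RefSeq tables of GRCm38.p6.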

Additional observations from a re-analysis of the deposited data

Results flagged for a closer look

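Of 460 groups of 4 arrays examined among the named genes, 28 held 1 array that stood far from the other 3 for its gene, and chance gives about 1 in 20. Among vehicle arrays, replicate 1 was low for Sytl2 (5.06) and high for Mir103-2 (7.34), Prdm1 (6.10), Rad51ap1 (7.32) and Lgals4 (6.22). Vehicle replicate 2 was high for Gpr15 (4.77) and low for Il10 (5.57) and Tnfrsf18 (8.73). Vehicle replicate 3 was low for Il18r1 (5.77), Selplg (10.25), Sla2 (7.54), Cd4 (10.27) and Zbtb32 (7.09) and high for Nup93 (7.72). Vehicle replicate 4 was low for Emp1 (4.94).

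Among TCDD arrays, replicate 1 was high for Kif23 (6.42) and H2az2 (9.63), the array closest to vehicle for both. TCDD replicate 2 was low for AB124611 (5.47), Il18r1 (6.95), P2ry14 (3.72) and Rgs1 (6.10) and high for Dhrs3 (6.01). TCDD replicate 3 was low for Il21 (9.24) and high for Pik3r5 (7.46). TCDD replicate 4 was high for Ms4a4c (6.47) and Itga4 (7.46) and low for Tnfsf4 (4.46) and Ncapd2 (7.26).

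In the direct comparison of the 2 ligands, Gzma (1.21), Il7r (1.16) and Nqo1 (1.08) were higher with Cl-BBQ by limma's test of that difference, on the log2 scale.

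Probe sets without a single gene symbol were not part of the comparison by gene. Fitted in the same way, 109 of 8728 tested were called with TCDD, 47 higher and 62 lower. The largest fall among them, of probe set 17218835, was from a mean of 11.22 to 7.60, a change of -3.62 ± 0.21 SE, and the rise with the smallest adjusted p, of probe set 17523659, was 2.44. The largest rise, of probe set 17204359, was 2.69 ± 0.60 SE (adjusted p = 0.0285 by limma).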

How the results depend on the processing

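The counts for TCDD against vehicle moved by less than 1.5 times under every alternative run, from 324 to 492 genes higher and from 313 to 571 lower. With the replicate number as a block they were 333 and 381. Of 216 called genes among the 230 named, 175 stayed called under every alternative other than leaving out an array, 168 with any 1 array left out and 167 under all. Both reversals were of genes not called: leaving out 1 array gave a change of -0.0218 (without vehicle replicate 3) to 0.0964 for Cd4 and of -0.2462 to 0.0145 (without TCDD replicate 3) for Pdcd1. The count for Cl-BBQ against TCDD, 3 genes, was less stable. It was 0 with only the 2 groups compared, 0 with the replicate block and 0 with no filter on low values. It was 5 after quantile normalization was applied again, 5 with an intensity trend, 5 with the mean of all probe sets and 7 with array weights. Leaving out 1 array gave 0 to 5. The cause was not tested. Genes below the floor of 4.31 could not be followed: 31 genes called higher had a vehicle mean below it and 18 called lower a TCDD mean below it, so their folds may be understated.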

Other observations

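Of 83 tested olfactory receptor genes, which T cells are not known to use, 3 were called lower, a share close to the 3.5% of all genes tested, and without TCDD replicate 2 none was. None of 6 tested Schlafen genes, linked to T cell quiescence, was called by limma, with 3 at an unadjusted p under 0.05 and 1 called without TCDD replicate 2. Of 18 tested condensin and cohesin subunit genes, a list drawn up after values were seen, 11 fell and none was called higher, with a median change of -0.39, and the condensin subunit gene Ncapg2 changed by -1.34 ± 0.19 SE.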
